A study of Homo sapiens with 12 samples.

Results

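Non-homologous end joining seals DNA double-strand breaks without a template, and 10 of its genes were followed here out of 63299 genes in the deposited tables. The genes were taken by name: XRCC5, XRCC6, PRKDC, DCLRE1C, LIG4, XRCC4, NHEJ1, TP53BP1, RIF1 and MAD2L2. All 10 had a row in both tables, and 9 had enough counts to be tested. NHEJ1 did not pass the filter on low counts and is described by its counts only.

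In this pathway the Ku heterodimer, made by XRCC5 (Ku80) and XRCC6 (Ku70), slides onto a broken end and recruits the kinase DNA-PKcs, made by PRKDC. The nuclease Artemis (DCLRE1C) trims ends that cannot be joined directly, and DNA ligase IV (LIG4), held by its partners XRCC4 and XLF (NHEJ1), seals the break. 53BP1 (TP53BP1), RIF1 and REV7 (MAD2L2) protect the end from resection and so keep the break available for joining. Prostate tumours are commonly treated with radiation, whose cytotoxic lesion is the double-strand break.

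RNA was measured in LNCaP cells, a prostate cancer line from a lymph node metastasis, in a derivative that carries a doxycycline-inducible hairpin against PRMT5, an arginine methyltransferase. The 12 libraries formed 4 groups of 3. The non-irradiated control (0 Gy) received no doxycycline, and the non-irradiated knockdown received 1 µg/mL of it every 48 h. The irradiated control received 2 Gy and no doxycycline, and the irradiated knockdown received 2 Gy and the same doxycycline. Both irradiated groups were harvested 24 h after the dose. All 4 groups carry the hairpin, so a knockdown comparison holds hairpin induction and doxycycline together, and the effects of these cannot be told apart. Whether the line is 1 clone, and whether the 3 libraries of each group are separate cultures, is not given in the sources used here, and p-values therefore reflect library-to-library spread that may be technical. The design asks how PRMT5 loss and radiation, alone and together, change expression.

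Total counts ran from 14801939 to 33158865 per library. PRMT5 itself was at 192 ± 5.76 CPM (counts scaled to equal library sizes; SD, n = 3) in non-irradiated controls and 30.1 ± 3.17 CPM in non-irradiated knockdowns, and at 201 ± 25.0 and 27.7 ± 3.29 CPM in the irradiated groups, so no library went against its label. The 9 luminal prostate markers summed to between 6929 and 10421 CPM. The 6 leukocyte markers summed to at most 0.607 CPM, with CD3E at 0 counts throughout, and the 6 fibroblast markers to between 12.2 and 27.2 CPM, most of it COL1A1, with COL1A2 at 0. The 3 basal markers summed to between 0.732 and 9.81 CPM and the 3 neuroendocrine markers to between 1.76 and 3.04 CPM. Both irradiated libraries numbered 1 stood apart from the other libraries of their groups: the chi-square of counts per gene against those was 105 and 129 in controls and 56.2 and 74.5 in knockdowns, and 12.5 and 8.96 between the other libraries. For 8 of the 9 tested members, all but XRCC4, the highest or the lowest of the 12 values came from one of these 2 libraries, and calls and irradiation differences are also given without them. Non-irradiated and irradiated libraries came from separate tables, and irradiation and table cannot be told apart. These are bulk samples, in which fewer cells of a type and less RNA per cell cannot be told apart.

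The members covered a wide range of levels. Per length (RPKM, reads per kilobase scaled to library size), the mean over 12 libraries was 191 for XRCC6, 67.6 for XRCC5, 33.0 for PRKDC, 10.6 for LIG4 and 7.34 for TP53BP1. It was 5.04 for MAD2L2, 4.08 for RIF1, 2.52 for XRCC4, 1.06 for DCLRE1C and 0.0615 for NHEJ1. The genes that bind the end and signal from it were thus the most abundant, and XRCC4 and the nuclease the least abundant of the tested members. NHEJ1 was lower still, but its count is uncertain because its exons are shared with another gene on the same strand. XRCC6 stood above 99.2% of tested genes and DCLRE1C above 25.6%. The top 3 kept their order in all 12 libraries with ranges that did not overlap, and so did XRCC4 above DCLRE1C. The ranges of LIG4 and TP53BP1, of TP53BP1 and MAD2L2, of MAD2L2 and RIF1, and of RIF1 and XRCC4 overlapped. MAD2L2 was above RIF1 in 8 of 12 libraries only.

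**Figure D1:**
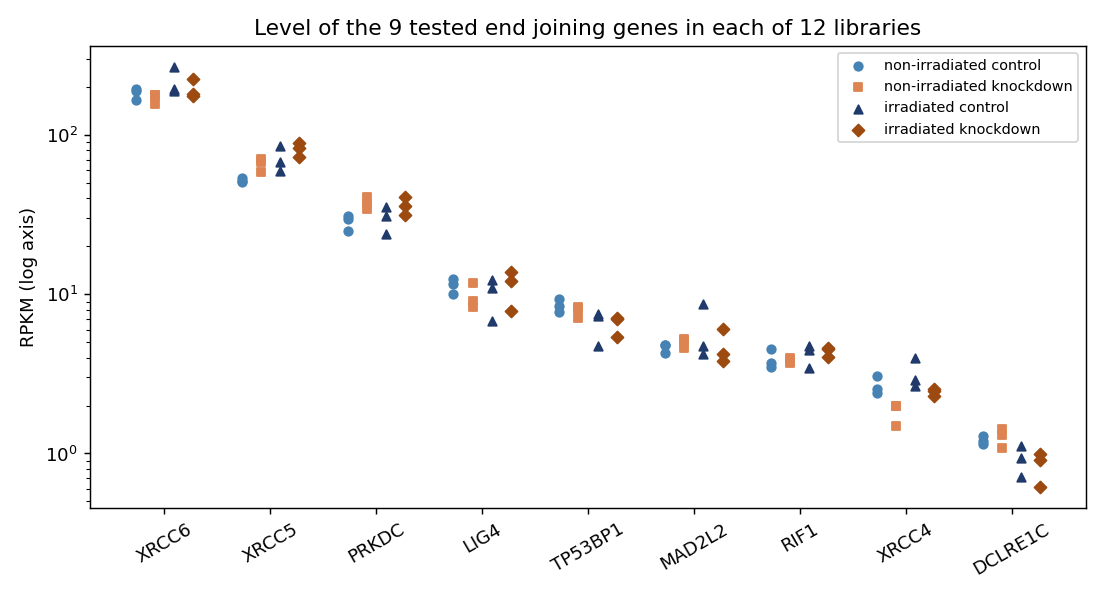
Level of each of the 9 tested members in each library, as RPKM on a log axis; each point is 1 library, coloured and shaped by group. XRCC6 lies between 157 and 268 RPKM and DCLRE1C between 0.619 and 1.43 RPKM, and the high MAD2L2 point at 8.67 RPKM is an irradiated control.

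Across all 12 libraries the coefficient of variation of CPM ran from 11.3% for RIF1 to 25.5% for MAD2L2, beside a median of 23.2% over the 17191 genes tested. XRCC4 (24.6%) and MAD2L2 were the 2 tested members above that median, and RIF1 varied less than 88.9% of tested genes. Among genes of like level (mean CPM within 0.5 on the log2 scale) the share with a larger coefficient was 76.8% for RIF1, 67.2% for XRCC6 and 62.1% for PRKDC, but 39.1% for XRCC5, 39.4% for TP53BP1, 31.2% for LIG4 and 28.3% for MAD2L2.

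Knockdown was compared with control in each irradiation state and as the mean of both states, with edgeR's quasi-likelihood test adjusted over 17191 genes (Benjamini-Hochberg). Without irradiation 0 of the 9 tested members passed an adjusted p of 0.05, where 1.54% of all genes did. With irradiation 0 of 9 passed (0.297% of all genes), and in the mean of both states 0 of 9 (6.52%). At an unadjusted p under 0.05 the members were XRCC5, PRKDC and XRCC4 without irradiation (3 of 9, beside 17.4% of all genes), none with irradiation (9.28%) and the same 3 in the mean (22.7%). DESeq2 called 0, 0 and 2 members, beside 6.09%, 1.59% and 11.8% of all genes; the 2 were PRKDC and XRCC4. The libraries of both groups did not overlap for 3 members without irradiation (31.1% of all genes) for 1 with irradiation (13.5%), and for the same 1, XRCC4, in both states at once (6.45%). The median log2 fold change of the 9 was -0.02, -0.01 and -0.02 in the 3 comparisons, and over all genes 0.00, -0.01 and 0.00.

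Libraries with the same number in the same table deviated from their group means together, so each number pairs a knockdown with a control. When that number was entered as a block, 4 of 9 members passed without irradiation (27.8% of all genes), 1 with irradiation (11.5%) and 3 in the mean (34.3%). The members that passed were XRCC5, PRKDC, LIG4 and XRCC4 without irradiation, PRKDC with it, and XRCC5, PRKDC and XRCC4 in the mean.

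**Figure D2:**
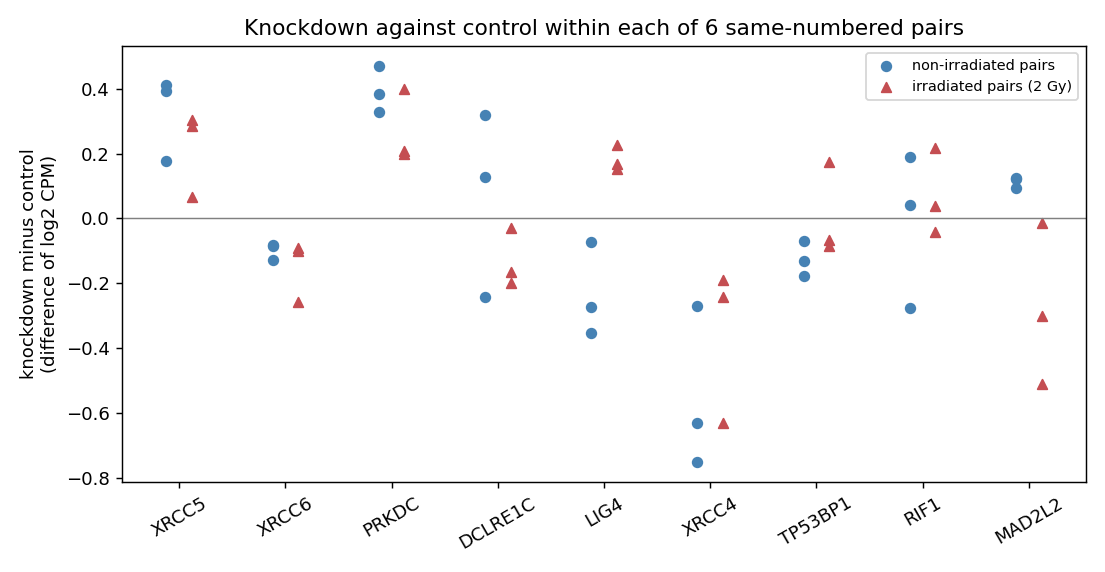
Difference of log2 CPM, knockdown minus control, for each tested member in each of the 6 same-numbered pairs; circles are non-irradiated pairs and triangles irradiated pairs. XRCC5 and PRKDC lie above 0 in all 6 pairs, XRCC6 and XRCC4 below 0 in all 6, and LIG4 and MAD2L2 on opposite sides in the 2 irradiation states. The share of all genes that lie on the same side of 0 in all 6 pairs was not computed.

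XRCC5 encodes Ku80 (ENSG00000079246.15, chromosome 2, 216107464 to 216206303, plus strand, GRCh38). Its level was 282, 276 and 294 CPM in non-irradiated controls and 319, 367 and 386 CPM in non-irradiated knockdowns. In irradiated controls it was 468, 371 and 324 CPM, and in irradiated knockdowns 490, 453 and 400 CPM. Every non-irradiated knockdown library was above every non-irradiated control library, and the irradiated groups overlapped. The log2 fold change of knockdown was 0.33 (SE 0.14, edgeR adjusted p = 0.263) in non-irradiated and 0.21 (SE 0.14, adjusted p = 0.719) in irradiated cells, and 0.27 (SE 0.10, adjusted p = 0.138) in the mean. Within pairs it was higher in 6 of 6, by between 0.07 and 0.41. With the block it rose without irradiation (0.33, edgeR adjusted p = 0.00801) and in the mean (0.27, adjusted p = 0.00225), but did not pass with irradiation (0.22, adjusted p = 0.0817).

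XRCC6 encodes Ku70, the other subunit (ENSG00000196419.12, chromosome 22, 41621119 to 41664048, plus strand). It held 546, 643 and 618 CPM in non-irradiated controls and 516, 588 and 583 CPM in non-irradiated knockdowns. Irradiated controls held 880, 623 and 638 CPM and irradiated knockdowns 736, 581 and 598 CPM. The groups overlapped in both states. The fold change of knockdown in the mean of both was -0.13 (SE 0.11, edgeR adjusted p = 0.537), with a 95% interval from -0.37 to 0.11. It was lower in the knockdown of 6 of 6 pairs, by amounts from -0.08 to -0.26, and with the block the adjusted p in the mean was 0.0607. Of the 50-base words of its transcripts 13.5% also occur in another gene, most often the pseudogene XRCC6P2, so part of its count is uncertain.

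Because Ku is an obligate dimer, the 2 transcripts were also set against each other, a measure that does not depend on how libraries are scaled and that was chosen after the values were seen. Per length XRCC6 exceeded XRCC5 by a ratio of 3.21, 3.87 and 3.49 in non-irradiated controls and 2.69, 2.66 and 2.51 in non-irradiated knockdowns. The ratio was 3.12, 2.79 and 3.27 in irradiated controls and 2.497, 2.13 and 2.48 in irradiated knockdowns. In both states every knockdown library lay below every control library, and the ratio was lower in the knockdown of all 6 pairs. Group means were 3.52 ± 0.328 and 2.62 ± 0.0949 without irradiation, and 3.06 ± 0.247 and 2.37 ± 0.208 with it (SD, n = 3). As a measure chosen for its pattern, the ratio was not tested.

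**Figure D3:**
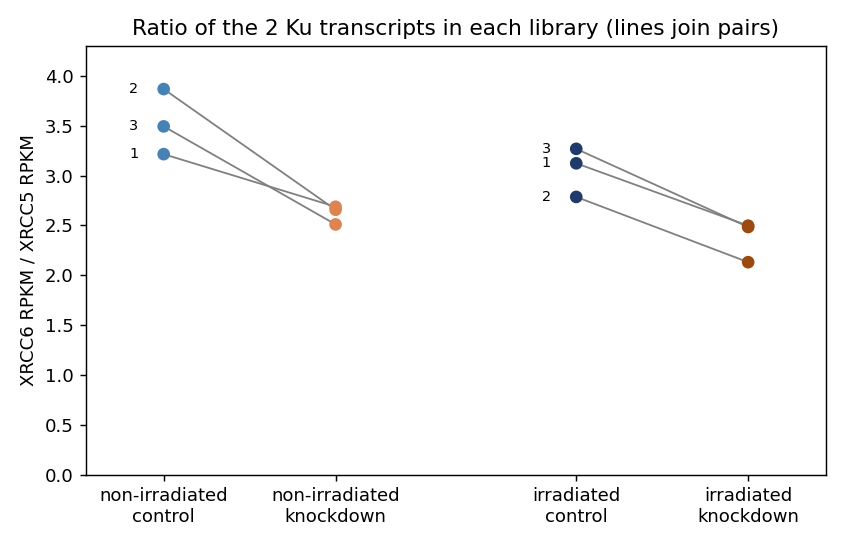
Ratio of XRCC6 to XRCC5 RPKM in each library, on an axis from 0, with grey lines joining same-numbered libraries of a table. The lines go down from control to knockdown in all 6 pairs, from between 2.79 and 3.87 to between 2.13 and 2.69.

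PRKDC encodes DNA-PKcs, the kinase that Ku activates (ENSG00000253729.7, chromosome 8, minus strand). Its level was 454, 384 and 481 CPM in non-irradiated controls and 570.5, 533 and 628 CPM in non-irradiated knockdowns. In irradiated controls it was 368, 475 and 546 CPM, and in irradiated knockdowns 485, 548 and 627 CPM. The non-irradiated groups did not overlap, and the irradiated groups did. The log2 fold change of knockdown was 0.39 (SE 0.16, edgeR adjusted p = 0.235) without irradiation, 0.26 (SE 0.16, adjusted p = 0.675) with it and 0.32 (SE 0.11, adjusted p = 0.110) in the mean. PRKDC was higher in the knockdown of 6 of 6 pairs, by 0.20 to 0.47. With the block it rose in all 3 comparisons, by 0.39 (edgeR adjusted p = 0.00200), 0.27 (adjusted p = 0.0293) and 0.33 (adjusted p = 0.000432), and DESeq2 called it in the mean (0.33, adjusted p = 0.0466).

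Cell cycle genes were set beside the members, and 0 of 20 proliferation markers passed by edgeR in either state. At an unadjusted p under 0.05 there were 5 without and 3 with irradiation. Of all genes 1.54% and 0.297% passed, and 17.4% and 9.28% had an unadjusted p under 0.05. The mean log2 CPM of these markers differed, knockdown minus control, by -0.38, 2.33 and 1.79 in non-irradiated pairs 1, 2 and 3, and by -0.63, -0.71 and -0.67 in the irradiated pairs. The mean was thus lower in the knockdown of 4 of 6 pairs and higher in the other 2. The part of proliferation in the values of XRCC5, PRKDC and the other members was not tested.

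DCLRE1C encodes Artemis (ENSG00000152457.17, chromosome 10, 14897359 to 14954432, minus strand). It was at 8.11, 7.25 and 7.56 CPM in non-irradiated controls and 6.84, 9.06 and 8.27 CPM in non-irradiated knockdowns. Irradiated controls held 4.50, 7.02 and 5.91 CPM and irradiated knockdowns 3.92, 6.26 and 5.80 CPM. Knockdown and control overlapped in both states, with log2 fold changes of 0.08 (SE 0.22, edgeR adjusted p = 0.891) and -0.13 (SE 0.22, adjusted p = 0.925). With the block DCLRE1C differed by 0.08 (SE 0.14, edgeR adjusted p = 0.712) and -0.13 (SE 0.14, adjusted p = 0.589). Of its exon positions 2.51% lie within SUV39H2 on the other strand.

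LIG4 encodes the ligase (ENSG00000174405.13, chromosome 13, 108207439 to 108218368, minus strand). Its level was 54.6, 50.7 and 43.9 CPM in non-irradiated controls and 51.8, 39.7 and 36.3 CPM in non-irradiated knockdowns. Irradiated controls held 29.6, 53.9 and 47.7 CPM and irradiated knockdowns 34.6, 60.6 and 53.1 CPM. The groups overlapped in both states, and both irradiated libraries numbered 1 were the lowest of all 12. The fold change of knockdown was -0.22 (SE 0.24, edgeR adjusted p = 0.684) in non-irradiated and 0.18 (SE 0.24, adjusted p = 0.899) in irradiated cells. Pair by pair LIG4 was lower in all 3 non-irradiated knockdowns, by -0.07, -0.35 and -0.27, and higher in all 3 irradiated ones, by 0.23, 0.17 and 0.15. With the block it fell without irradiation (-0.23, edgeR adjusted p = 0.0289) and did not pass with it (0.18, adjusted p = 0.118). The difference between the 2 effects was 0.40 (SE 0.34, edgeR adjusted p = 1.00), and with the block 0.42 (SE 0.10, adjusted p = 0.199), so no difference between the states was shown.

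XRCC4 encodes the scaffold that stabilises ligase IV (ENSG00000152422.15, chromosome 5, 83077498 to 83353787, plus strand). It was at 8.23, 6.45 and 6.75 CPM in non-irradiated controls and 5.29, 5.33 and 3.98 CPM in non-irradiated knockdowns. Irradiated controls held 7.06, 10.6 and 7.77 CPM and irradiated knockdowns 6.18, 6.82 and 6.56 CPM. It was the only member for which every knockdown library lay below every control library of the same state in both states. Knockdown means were 4.87 ± 0.769 CPM without and 6.52 ± 0.321 CPM with irradiation, against 7.14 ± 0.956 and 8.48 ± 1.87 CPM in controls (SD, n = 3).

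The log2 fold change of XRCC4 was -0.55 (SE 0.20, edgeR adjusted p = 0.174) without irradiation, -0.38 (SE 0.19, adjusted p = 0.593) with it and -0.47 (SE 0.14, adjusted p = 0.0677) in the mean, the smallest adjusted p of any member in any of the 6 comparisons. It was lower in 6 of 6 pairs, by amounts from -0.19 to -0.75. With the block it fell without irradiation (-0.55, edgeR adjusted p = 0.0176) and in the mean (-0.46, adjusted p = 0.00550), but did not pass with irradiation (-0.36, adjusted p = 0.125). DESeq2 called it in the mean (-0.46, adjusted p = 0.0191). Its counts were 96 to 341 per library, and no exon position is shared with another gene.

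Without both irradiated libraries numbered 1, a choice made after the data were seen, XRCC5 and PRKDC passed without irradiation (0.32, edgeR adjusted p = 0.0465 and 0.38, adjusted p = 0.0385), where 14.7% of all genes did. In the mean of both states XRCC5, PRKDC and XRCC4 passed (0.31, edgeR adjusted p = 0.0165, then 0.29, adjusted p = 0.0369, and -0.51, adjusted p = 0.0227), where 19.3% of all genes did. None passed with irradiation (1.87%), for irradiation in controls or knockdowns (4.97% and 10.3%) or for the difference of the effects. Leaving out irradiated control 1 alone let XRCC5 (0.35, edgeR adjusted p = 0.0192) and XRCC4 (-0.53, adjusted p = 0.0227) pass in the mean, where 2780 of 17666 genes did. That fit kept irradiated knockdown 1, the partner of the library left out, which had the highest XRCC5 of the 12 libraries (490 CPM).

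NHEJ1 encodes XLF, the other partner of the ligase (ENSG00000187736.12, chromosome 2, 219075317 to 219160865, minus strand), and was close to absent from the tables. It had 5, 7 and 6 counts in non-irradiated controls, 0, 3 and 2 in non-irradiated knockdowns, 5, 8 and 3 in irradiated controls and 4, 7 and 6 in irradiated knockdowns. A count of 0 allows up to 3 counts, or 0.165 CPM in that library (counting error only), so the lower non-irradiated knockdown values are within a few counts of the others and no fold is given. Its exons are also those of another gene on the same strand, a readthrough gene that the tables name RP11-33O4.2, which had 2 to 12 counts per library. Of the exon positions of NHEJ1 65.4% lie within exons of that gene, and of its 897 coding bases 100%. Of its 7 coding exons 6 have the same ends in both genes. The first of these, exon 2 of 8 of the principal transcript (GENCODE 29, GRCh38, chr2:219158186-219158362, minus strand, 177 bases), is shown because a read within it belongs to both genes alike; it opens with the start codon, and the capitals mark its first 50 bases.
NHEJ1 exon 2: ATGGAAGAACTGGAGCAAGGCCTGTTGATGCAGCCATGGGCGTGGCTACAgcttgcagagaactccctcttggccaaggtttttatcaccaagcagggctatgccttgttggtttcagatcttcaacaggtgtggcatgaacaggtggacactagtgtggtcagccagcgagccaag

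Both readthrough transcripts hold that exon, and 61.9% of the 50-base words of NHEJ1 transcripts occur in other genes. How the counting treated a read that falls in 2 genes is not given in the sources used here. Over the protein-coding genes of the tables, 561 of 716 (78.4%) with over 50% of their exon positions shared on the same strand had a mean count under 10, and 6159 of 16759 (36.8%) with none shared. The NHEJ1 count is therefore uncertain, and the part of the sharing in it was not tested. No other member shares an exon position on its own strand.

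TP53BP1 encodes 53BP1, the chromatin reader that starts the end-protecting arm (ENSG00000067369.13, chromosome 15, 43403061 to 43510728, minus strand). It was at 110, 101 and 121 CPM in non-irradiated controls and 105, 92.1 and 107 CPM in non-irradiated knockdowns. Irradiated controls held 61.8, 95.0 and 97.3 CPM and irradiated knockdowns 69.7, 90.8 and 91.8 CPM. Knockdown and control overlapped in both states (-0.13, SE 0.17, edgeR adjusted p = 0.755, and -0.01, SE 0.17, adjusted p = 0.993). In the mean the 95% interval of this fit, which leaves out the pairing, ran from -0.33 to 0.20. With the block TP53BP1 differed in the mean by -0.06 (SE 0.05, edgeR adjusted p = 0.351). Of its exon positions 28.7% lie within TUBGCP4 on the other strand, which differed by -0.08 and -0.06 between knockdown and control.

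RIF1, which 53BP1 recruits (ENSG00000080345.17, chromosome 2, 151409883 to 151508013, plus strand), was the steadiest member. Its values were 81.8, 63.1 and 66.8 CPM in non-irradiated controls, 67.6, 72.0 and 68.7 in non-irradiated knockdowns, 62.9, 85.7 and 80.6 in irradiated controls and 73.2, 83.2 and 82.8 in irradiated knockdowns. Knockdown and control overlapped in both states. In the mean its fold change was 0.02 (SE 0.10, edgeR adjusted p = 0.931), with a 95% interval from -0.19 to 0.23. With the block, which uses the pairing, it was 0.03 (SE 0.06, edgeR adjusted p = 0.746).

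MAD2L2, the small adaptor that links RIF1 to shieldin (ENSG00000116670.14, chromosome 1, 11674480 to 11691650, minus strand), was at 14.1, 15.9 and 15.9 CPM in non-irradiated controls and 15.4, 17.0 and 17.4 CPM in non-irradiated knockdowns. Irradiated controls held 28.8, 14.0 and 15.7 CPM and irradiated knockdowns 20.2, 13.9 and 12.7 CPM. Both irradiated libraries numbered 1 were the highest of all 12. Like LIG4, but the other way round, it was higher in all 3 non-irradiated knockdowns of a pair, by 0.12, 0.09 and 0.12, and lower in all 3 irradiated ones, by -0.51, -0.01 and -0.30. Neither effect passed (0.11, SE 0.25, edgeR adjusted p = 0.861, and -0.32, SE 0.25, adjusted p = 0.761). The difference between them was -0.43 (SE 0.36, edgeR adjusted p = 1.00), and -0.39 (SE 0.15, adjusted p = 0.345) with the block. Without irradiated control 1 the effect with irradiation was 0.07, and without both irradiated libraries numbered 1 it was -0.16 (edgeR adjusted p = 0.660).

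In the difference of the knockdown effects, with minus without irradiation, 0 of 9 members passed by edgeR, where 0% of all genes did, and none of the 9 at an unadjusted p under 0.05, where 2.04% did. With the block 0 of 9 passed, and LIG4 and MAD2L2 had an unadjusted p under 0.05 (2 of 9, beside 12.2% of all genes). DESeq2 passed 0 members and 1 gene of all (0.00582%). The median difference of the members was -0.06, beside 0.00 over all genes.

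Irradiated libraries were compared with non-irradiated ones separately in controls and in knockdowns. The share of counts in mitochondrial genes was 5.23% to 6.19% in non-irradiated and 6.55% to 7.43% in irradiated libraries, with no overlap, and its part in the differences was not tested. In controls 0 of 9 members passed by edgeR, where 2.26% of all genes did, and in knockdowns 0 of 9, where 3.58% did. At an unadjusted p under 0.05 there were 2 members in each, 1 higher and 1 lower, beside 21.8% and 20.9% of all genes. DESeq2 called 1 member in controls, XRCC5 (0.45, adjusted p = 0.0491, 8.01% of all genes), and 0 in knockdowns (8.36%). With the block 0 members passed in either (5.61% and 6.73% of all genes). Over all genes 238 rose and 151 fell in controls and 374 and 241 in knockdowns. When libraries were scaled by their totals alone, 170 rose and 444 fell in controls and 224 and 621 in knockdowns, and the median over all genes moved from 0.00 to -0.16 and -0.15, so each value below is relative to that median.

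XRCC5 had the largest positive difference of the members in controls. Its non-irradiated control libraries reached 294 CPM and the irradiated ones began at 324, and in knockdowns 386 and 400. The fold change was 0.45 (SE 0.14, edgeR adjusted p = 0.110) in controls and 0.32 (SE 0.14, adjusted p = 0.223) in knockdowns, and without both libraries numbered 1 it was 0.29 and 0.25. XRCC6 differed by 0.24 (SE 0.15, edgeR adjusted p = 0.369) and 0.18 (SE 0.15, adjusted p = 0.530), with overlapping groups, and without those 2 libraries by 0.06 and 0.07.

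DCLRE1C was lower after irradiation in both states, with groups that did not overlap: the irradiated maximum was 7.02 against a non-irradiated minimum of 7.25 CPM in controls, and 6.26 against 6.84 in knockdowns. The fold changes were -0.39 (SE 0.22, edgeR adjusted p = 0.310) and -0.60 (SE 0.22, adjusted p = 0.148). TP53BP1 was also lower without overlap, by -0.39 (SE 0.17, edgeR adjusted p = 0.218) and -0.27 (SE 0.17, adjusted p = 0.395). Without both libraries numbered 1 the values were -0.24 and -0.42 for DCLRE1C and -0.21 and -0.15 for TP53BP1. The groups did not overlap for 3 members in controls (27.6% of all genes) and 5 in knockdowns (29.8%), where XRCC4 and RIF1 joined them with 0.42 and 0.20.

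PRKDC differed little between the tables (0.07, SE 0.16, edgeR adjusted p = 0.811 in controls and -0.06, SE 0.16, adjusted p = 0.863 in knockdowns), and scaling by totals alone turned the first to -0.07, while leaving out both libraries numbered 1 gave 0.21 in controls and 0.03 in knockdowns. The 95% intervals ran from -0.28 to 0.42 and from -0.41 to 0.29. RIF1 differed by 0.12 (SE 0.13, edgeR adjusted p = 0.631) in controls, or -0.03 with scaling by totals alone and 0.23 (edgeR adjusted p = 0.237) without both libraries numbered 1; in knockdowns it was 0.26 without them. LIG4 (-0.18) and MAD2L2 (0.35) in controls rested on 1 library: without irradiated control 1 they were 0.03 and -0.05. In knockdowns they were 0.22 and -0.09, and 0.42 (edgeR adjusted p = 0.0761) and -0.32 (adjusted p = 0.139) without both libraries numbered 1. XRCC4 was then at 0.36 in controls and 0.46 in knockdowns. The 20 proliferation markers had a median difference of 1.33 in controls and -0.53 in knockdowns; their part in the members' values was not tested.

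**Figure D4:**
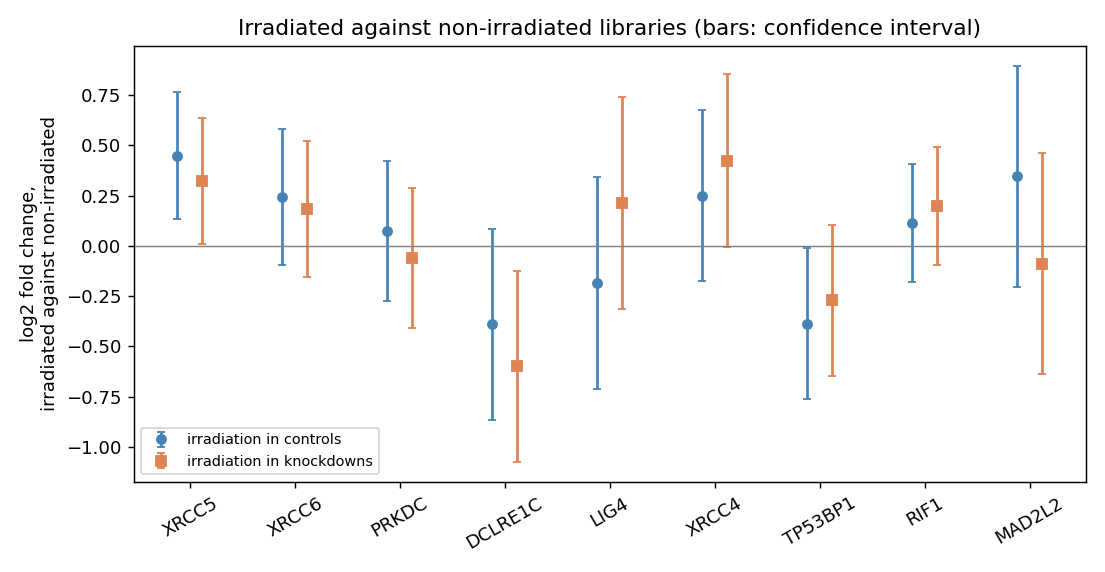
Log2 fold change of irradiated against non-irradiated libraries for each tested member, in controls (circles) and in knockdowns (squares); bars are 95% intervals from edgeR's test, unadjusted. XRCC5 (0.45 and 0.32), XRCC6, XRCC4 and RIF1 lie above 0 in both, and DCLRE1C (-0.39 and -0.60) and TP53BP1 below 0 in both. PRKDC, LIG4 and MAD2L2 lie on opposite sides of 0, and no member passed the adjusted threshold by edgeR.

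Other factors of the pathway and the genes around it were taken as lists. Of 10 further end joining factors 9 were tested (DNTT, the template-free polymerase of lymphoid cells, had 0 counts), and by edgeR 0 passed in any of the 6 comparisons. Their median for knockdown in the mean of both states was 0.10, beside 0.00 over all genes. The largest differences there were in the gap-filling polymerase POLM (0.32, SE 0.10, edgeR adjusted p = 0.0749) and in CYREN, a Ku-binding regulator (0.30, SE 0.10, adjusted p = 0.0870). At an unadjusted p under 0.05 these were the 2 of 9 in the mean, beside 22.7% of all genes. With the block 2 of the 9 passed without irradiation and 3 in the mean, all higher: POLM, CYREN and, in the mean, POLL. Over all genes the block called 27.8% and 34.3% in either direction, and 13.7% and 17.0% as higher.

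Of 15 partners of 53BP1 in damage signalling and shieldin 14 were tested. By edgeR 1 rose with knockdown in the mean of both states, where 6.52% of all genes passed. It was PAXIP1, which encodes the 53BP1-binding adaptor PTIP: 36.3 ± 1.19 against 46.6 ± 4.83 CPM without and 40.1 ± 2.76 against 49.2 ± 3.34 CPM with irradiation, control against knockdown (0.33, SE 0.08, edgeR adjusted p = 0.0287). The median of the 14 was 0.05. Between irradiated and non-irradiated knockdowns 1 of the 14 fell, MDC1, the adaptor that binds phosphorylated H2AX, from 80.4 ± 15.9 to 51.1 ± 0.803 CPM (-0.65, SE 0.14, edgeR adjusted p = 0.0324). In that comparison 3.58% of all genes passed. The tables hold 8 rows named MDC1, so its count is uncertain. With the block 2 of the 14 passed for knockdown without irradiation (both higher), 1 with it (higher) and 5 in the mean (3 higher, 2 lower). PAXIP1 was among them each time, beside 27.8%, 11.5% and 34.3% of all genes in either direction.

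All 13 genes of end resection and of alternative end joining, the routes that compete with the members for a break, were tested. By edgeR 1 rose with knockdown in the mean of both states, LIG3, the ligase of alternative end joining, from 86.3 ± 7.65 to 112 ± 13.4 CPM without and from 98.1 ± 5.56 to 116 ± 5.81 CPM with irradiation (0.31, SE 0.08, edgeR adjusted p = 0.0415). In the mean 6.52% of all genes passed. The resection partner BARD1 differed there by 0.58 (SE 0.16, edgeR adjusted p = 0.0507). The list median was 0.49 without irradiation, -0.15 with it and 0.26 in the mean, and -0.27 for the difference of the effects; that of the 20 proliferation markers was 0.98, -0.74, 0.23 and -1.81. The part of proliferation in the list's values was not tested. With the block 5 of the 13 passed without irradiation (4 higher, 1 lower), 3 with it (2 higher, 1 lower) and 8 in the mean (6 higher, 2 lower). LIG3 was among them each time, beside the same 27.8%, 11.5% and 34.3% of all genes in either direction. Apart from these, none of the 3 lists had a gene past the adjusted threshold by edgeR in any of the 6 comparisons.

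Genes that start next to a member on the opposite strand were looked for after the values were seen: 6 of 10 members had such a protein-coding neighbour with 5′ ends at most 1000 bases apart, beside 12.9% of 19713 protein-coding genes and 2289 of the 12733 that were tested. XRCC4 and TMEM167A, a Golgi membrane protein gene, have annotated 5′ ends 365 bases apart and share no exon position. TMEM167A was at 172, 165 and 165 CPM in non-irradiated controls and 131, 117 and 109 CPM in non-irradiated knockdowns, and at 186, 196.3 and 161 CPM in irradiated controls and 163, 161 and 140 CPM in irradiated knockdowns. Like XRCC4 it was lower in the knockdown of 6 of 6 pairs, by amounts from -0.19 to -0.60, though its irradiated groups overlapped. It fell in the mean of both states (-0.36, SE 0.08, edgeR adjusted p = 0.0228). It differed by -0.49 (SE 0.11, edgeR adjusted p = 0.0554) in non-irradiated and -0.23 (SE 0.11, adjusted p = 0.574) in irradiated cells, and with the block it fell in each (adjusted p = 0.000314 and 0.0352).

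**Figure D5:**
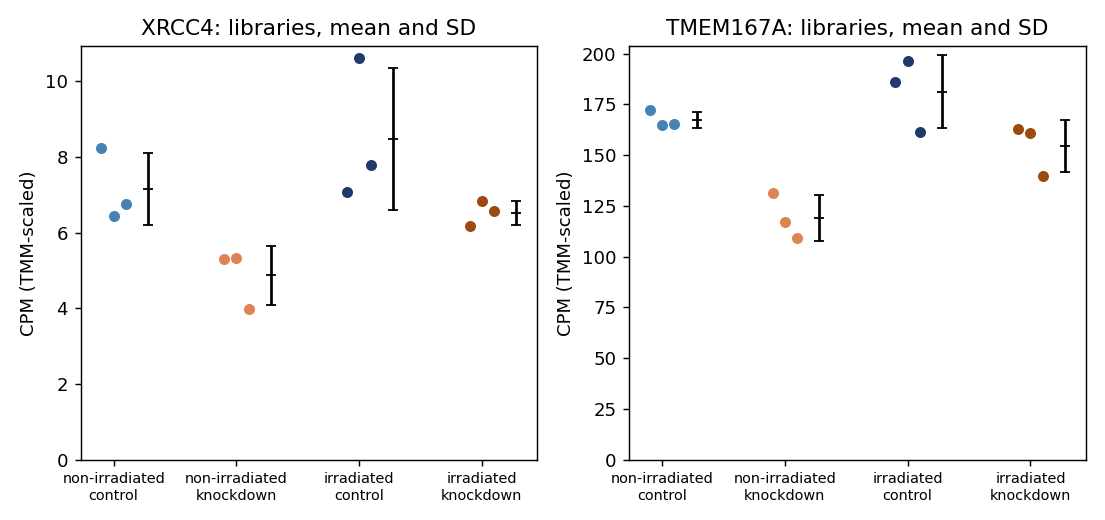
CPM of XRCC4 (left) and of its head-to-head neighbour TMEM167A (right) in each library, with the mean and SD of each group of 3 beside the points, on axes from 0. Both genes are lowest in non-irradiated knockdowns, at 4.87 and 119 CPM on average, against 7.14 and 167 CPM in non-irradiated controls.

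The other pairs were unlike one another. The 5′ ends of PRKDC and MCM4, a helicase subunit gene counted among the proliferation markers, are 2 bases apart, yet MCM4 ran from 27.8 to 162 CPM over the libraries while PRKDC ran from 368 to 628. The library with the highest MCM4, irradiated control 1, which stood apart from its group, had the lowest PRKDC. Knockdown minus control, MCM4 differed by 0.15, 1.55 and 1.18 in the non-irradiated pairs and by -0.73, -0.20 and -0.07 in the irradiated pairs. PRKDC was higher in the knockdown of 6 of 6 pairs. XRCC6 and DESI1 are 23 bases apart, and DESI1 too was lower in the knockdown of 6 of 6 pairs (-0.19 in the mean, SE 0.11, edgeR adjusted p = 0.341; with the block adjusted p = 0.00466). LIG4 and ABHD13 are 11 bases apart, and ABHD13 differed by -0.07 without and 0.15 with irradiation (SE 0.17 and 0.16, edgeR adjusted p = 0.870 and 0.860). TP53BP1 and MAP1A are 230 bases apart, and MAP1A had a mean of at most 2.14 CPM in any group. DRAXIN, 79 bases from MAD2L2, had too few counts to be tested.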

How the data were processed

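The authors deposited 2 tables of raw read counts, 6 libraries each, for irradiated and for non-irradiated cells; exon coordinates and a merged length stand beside each gene, per the file headers. Polyadenylated RNA from a Trizol extraction was sequenced, per the labels' protocols. Named are GRCh38, the aligner STAR 2.5, edgeR 3.20.8 and, from Subread 1.5.3, featureCounts, per the submitters' processing notes; the sources used here give no strand setting, annotation release or rule for reads in several genes.

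From the counts, genes were kept by filterByExpr in edgeR 4.0.16 (R 4.3.3; minimum count 10, minimum total 15), which left 17191 of 63299. No row named anything but a gene. Scaling was by TMM, and the quasi-likelihood test (robust) used 4 group means over all 12 libraries (8 residual degrees of freedom, biological coefficient of variation 0.216). A call is an adjusted p under 0.05. The SE is the absolute log2 fold change divided by the square root of F. Pair differences use log2 CPM with a prior count of 2. RPKM uses the tables' lengths. The filter keeps a gene for its counts in any group, so the 9 tested members are not all members. A count of 3 equalled 0.0932 to 0.189 CPM.

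Same-numbered libraries pair within a table: their deviations from group means over genes correlated by 0.233 to 0.296 (non-irradiated) and 0.607 to 0.775 (irradiated). Libraries of different numbers in a table correlated by -0.178 to -0.0678 without irradiation. With irradiation these values were -0.677 to -0.592 where 1 of the libraries was numbered 1, and 0.396 and 0.476 between numbers 2 and 3. The irradiated values thus partly reflect the libraries numbered 1. Across tables same-numbered libraries correlated by -0.150 to 0.143. The alternatives were other scalings, no filter, DESeq2 1.42.0, only the libraries compared, the block and leaving out each library. Exon sharing was computed from the tables' coordinates, and words and the printed exon from GENCODE 29. The script was tested on simulated data. The members, lists and tests were chosen with earlier results of these data known. Named were all 10 members, PRMT5, and genes of the lists that were called or had the smallest p (up to 3 per comparison, not all printed).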

Additional observations from a re-analysis of the deposited data

How the results depend on the processing

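In the main fit, which leaves out the pairing, the count of called members was 0 in every comparison. It stayed 0 under 104 of 112 alternatives. In each comparison 12 of these only left 1 library out of that unpaired fit, and the block alone used the pairing, so the tally does not weigh the pairing. The exceptions were the replicate block (4 without irradiation, 1 with it, 3 in the mean), DESeq2 (2 in the mean, 1 for irradiation in controls), and leaving out both irradiated libraries numbered 1 (2 without irradiation, 3 in the mean) or irradiated control 1 alone (2 in the mean). For irradiation the numbers do not pair the libraries, and the block there called 0 members. The genes called in all moved far more. For knockdown without irradiation (265) there were 1047 by DESeq2, 1486 with only the libraries compared, 4776 with the block, 2564 without both libraries numbered 1 and 31 to 989 with 1 library left out. For knockdown with irradiation (51) these were 273, 1, 1974, 326 and 4 to 254. In the mean of both states (1120) they were 2035 by DESeq2, 5894 with the block, 3378 without both and 440 to 2780 with 1 left out; a fit on only the libraries compared was not run for it. For irradiation in controls (389) they were 1377, 64, 965, 868 and 24 to 648, with 614 when scaled by totals alone and 592 without a filter. For irradiation in knockdowns (615) they were 1438, 344, 1157, 1806 and 76 to 1489. The difference of effects gave 1 gene by DESeq2. Where a library was left out, its group had 2, and where both were left out, 2 in each irradiated group.

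In each comparison where a member passed under an alternative, its direction was the same under all of them. Values near 0 changed sign: with the block TP53BP1 with irradiation was 0.0070; scaled by totals alone PRKDC and RIF1 for irradiation in controls were -0.073 and -0.033. Without both libraries numbered 1, RIF1 was -0.0045 with irradiation and -0.016 in the mean, LIG4 and MAD2L2 for irradiation in controls 0.0276 and -0.0523, PRKDC for irradiation in knockdowns 0.0256 and XRCC6 for the difference 0.0077. With 1 library left out these ranges crossed 0. Without irradiation RIF1 ran from -0.098 to 0.096 and DCLRE1C from -0.012 to 0.18. With irradiation XRCC6 ran from -0.29 to 0.020, LIG4 from -0.039 to 0.37, RIF1 from -0.060 to 0.14, MAD2L2 from -0.56 to 0.073, DCLRE1C from -0.28 to 0.043 and TP53BP1 from -0.19 to 0.10. In the mean LIG4 ran from -0.13 to 0.070, DCLRE1C from -0.10 to 0.058, RIF1 from -0.044 to 0.078 and MAD2L2 from -0.23 to 0.090. For irradiation in controls PRKDC ran from -0.062 to 0.21, LIG4 from -0.35 to 0.028 and MAD2L2 from -0.051 to 0.55; in knockdowns PRKDC ran from -0.15 to 0.025 and MAD2L2 from -0.32 to 0.045. For the difference XRCC6 ran from -0.18 to 0.13, RIF1 from -0.036 to 0.16, XRCC5 from -0.24 to 0.041, TP53BP1 from -0.058 to 0.23 and PRKDC from -0.27 to 0.0017. The causes were not tested. Depth limits NHEJ1 (0 to 8 counts) most, then DCLRE1C (102 to 260) and XRCC4 (96 to 341).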
